A study of Mus musculus with 16 samples.

Results

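Astrocyte clone G4 was set against the other 4 astrocyte clones of the series, 129, C2, mC3 and mE6, so that 1 of 16 libraries was compared with 4. It was chosen by its measured Cast shares and read totals, since its Cast reads were out of balance on chromosomes 3 and 18, on distal chromosome 12 and on distal chromosome 4. The values on those regions are therefore a description with no test. Of the 50600 genes in the files, 25933 had a position on GRCm38: 1122 on chromosome 3, 549 on chromosome 18, 480 on distal chromosome 12, 593 on distal chromosome 4 and 21477 on the balanced autosomes, which are all other autosomal genes.

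All 5 lines were F1 hybrids, with 129/Sv as the mother and Cast as the father, and each was grown from a single neural progenitor (NPC), so that every value of G4 belongs to 1 clone and 1 library. G4, 129 and C2 were female and mC3 and mE6 male, and the labels name no transgene or deletion for them. Astrocytes were made from the NPC clones with BMP4, a signal that takes neural progenitors towards the astrocyte fate, and poly(A) RNA was sequenced. The remaining 11 libraries came from NPC clones and were used here for background only.

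Reads on genes numbered 80241858 in G4 and 78257443 to 93963293 in the other astrocyte clones, of which 33.4 to 34.8% could be given to an allele. With 1 library against 4, a permutation test cannot go below p = 0.2. Clone 129 had a median Cast share of 34.2% on chromosome 1, and C2 one of 44.9% on distal and 44.8% on proximal chromosome 4, so the reference clones were not all even there. Astrocyte markers summed to 13459 CPM (read counts scaled to a common library size) in G4, between 9040 and 20782 in the other clones. G4 was the highest clone for 5 of the 24 markers and the lowest for 6. The level of the glutamate transporter gene Slc1a2, one of the former, was 1092 CPM in G4, 264 in 129, 290.0 in C2, 738 in mC3 and 487 in mE6. The calcium-binding protein S100b, one of the latter, was at 39.4 CPM in G4, 71.8 in 129, 119.97 in C2, 196 in mC3 and 559 in mE6. Neural progenitor markers summed to 1136 CPM in G4, below the 1384 to 1726 of the other clones. Pluripotency markers summed to 12.4 CPM in G4 and 7.38 to 17.9 in the others, with Lin28a, Utf1, Fgf4 and Dppa5a at 0 reads in G4. The markers of fibroblasts and smooth muscle summed to 1168 CPM in G4, against 1441 and 1338 in the female clones and 288 and 232 in the male ones. In bulk RNA, fewer cells of a type and less RNA per cell cannot be told apart.

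Cultured stem and progenitor cells often gain or lose whole chromosomes or chromosome arms. RNA from a gained or lost segment usually follows the number of copies, while feedback on single genes, or decay of surplus subunits of a complex, can pull levels back, which is called buffering. In a hybrid, reads over SNPs tell which parental copy the RNA came from. A gene with 2 Cast copies and 1 129 copy, all equally active, would have a Cast share of 66.7% and a total of 1.5 times that of a balanced gene. DNA copy number was not measured in these data.

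Median Cast shares in G4 were 65.95% on chromosome 3 (591 genes, each with 20 or more reads given to an allele), 65.2% on chromosome 18 (326 genes), 72.0% on distal chromosome 12 (227 genes) and 7.57% on distal chromosome 4 (261 genes). In the other 4 clones these medians lay between 48.9 and 49.6%, 49.2 and 50.1%, 48.5 and 53.9%, and 44.9 and 49.3%. The balanced autosomes had 49.3% in G4 and 49.2 to 49.3% in the others. On the other 15 autosomes, medians in G4 ranged from 48.1 to 50.4%. The shares were flat along each region. By gene order, the first, middle and last parts of chromosome 3 had medians of 66.7, 65.4 and 65.7%, those of chromosome 18 65.03, 65.29 and 65.16%, those of distal chromosome 12 73.1, 71.4 and 72.6%, and those of distal chromosome 4 7.69, 7.76 and 7.12%.

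The split on chromosome 4 lay between C77080 (chr4:129219578-129261404), with a Cast share of 40.1% over 142 reads, and Rbbp4 (chr4:129307100-129335370), a histone-binding protein of chromatin complexes, with 8.84% over 3573 reads. The gap between these genes was 45696 bp. Medians were 49.7% over the 393 proximal genes used to find the split and 7.63% over the 215 distal ones. On chromosome 12 the split lay between Snapc1 (chr12:73964457-73988966; 56.4%, 417 reads) and the potassium channel gene Kcnh5 (chr12:74897217-75177332; 62.3%, 53 reads), 908251 bp apart. There the medians were 48.6% over 167 proximal genes and 72.1% over 186 distal ones. Kcnh5 rested on 53 reads, so this edge is less sharply placed than the one on chromosome 4.

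**Figure D1:**
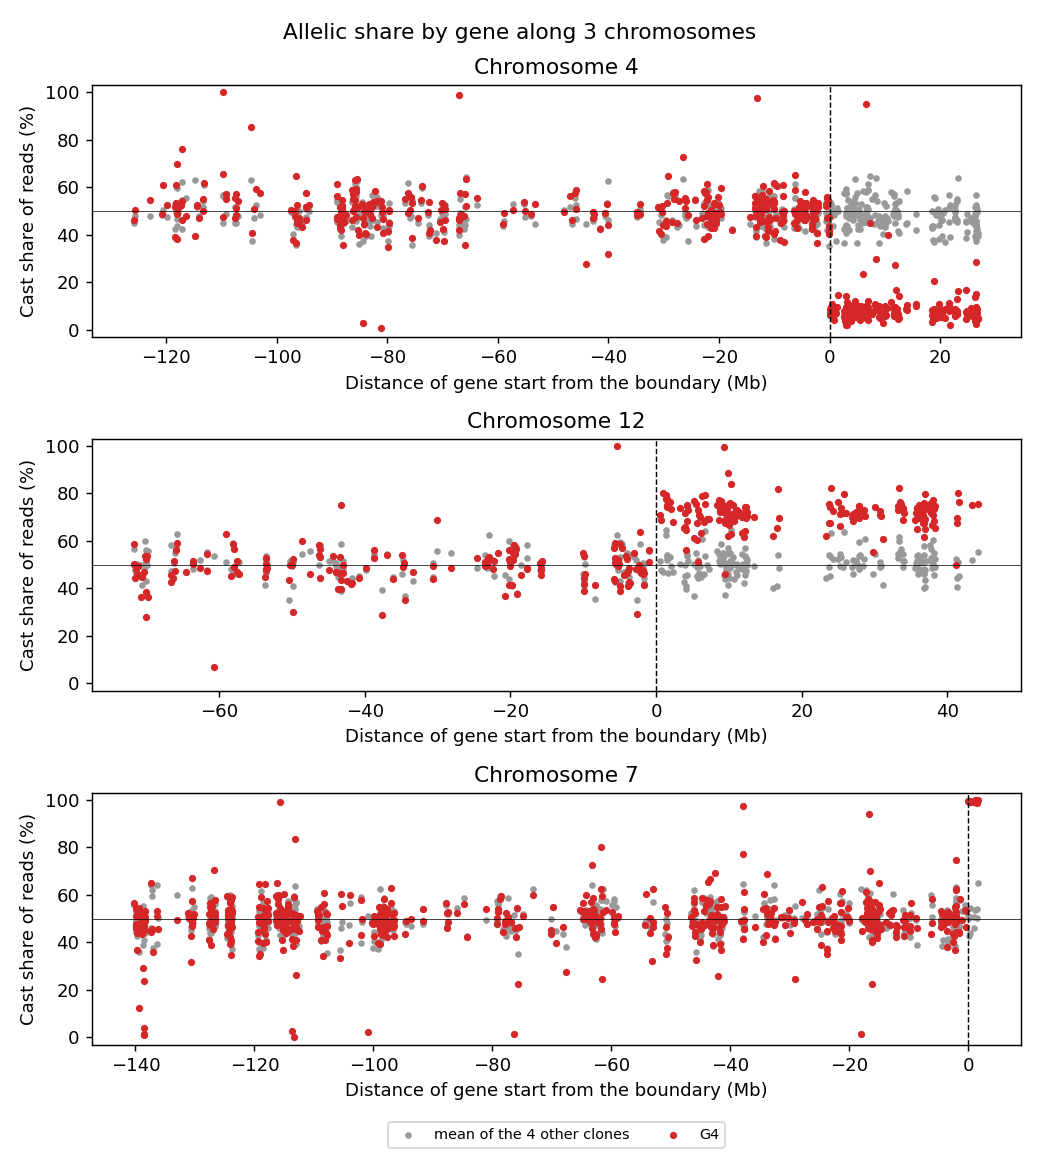
Cast share of allele-specific reads (percent) of each gene against the distance of its start from the boundary found in G4 (Mb), on chromosomes 4, 12 and 7. Red points are G4 and grey points the mean of the 4 other clones; beyond the dashed line the red points have medians of 7.63% on chromosome 4, 72.1% on chromosome 12 and 99.4% on chromosome 7.

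On distal chromosome 4, the Cast allele was low but not absent. Among 193 genes with 200 or more allele reads in G4, the median Cast share was 7.43%, with 4.54% at the 10th and 10.2% at the 90th percentile, and 3 genes lay under 1%. For comparison, male clones carry only a 129 X chromosome, and 0.0959% (mC3) and 0.0920% (mE6) of their X-linked allele-specific reads were given to Cast. Eya3, a phosphatase and transcription cofactor used in the study as a biallelic gene, lies in this region (chr4:132639025-132724765). Its Cast share was 9.48% in G4 (95% Wilson interval 7.68 to 11.7%, 833 reads; intervals cover counting error only) and 45.5 to 49.4% in the other clones. In G4 Eya3 had 22.7 CPM, against 46.3 (129), 56.6 (C2), 48.4 (mC3) and 36.3 (mE6). G4 was the lowest clone, at 0.484 times the mean of the others (46.9 ± 8.34 CPM, SD, n = 4).

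Total reads differed in the same direction as the shares. Chromosomes 3 and 18 and distal chromosome 12, with raised Cast shares, are called the gained regions here for their RNA. Dosage of a gene is log2 of its level in G4 (CPM with 0.5 added) minus the mean of the 4 other clones. Its median was 0.44 on chromosome 3 (643 genes), 0.46 on chromosome 18 (338), 0.65 on distal chromosome 12 (235) and -0.86 on distal chromosome 4 (304). The other clones, each set against the mean of the remaining ones, had medians from -0.05 to 0.05 on chromosome 3, -0.03 to 0.04 on chromosome 18, -0.05 to 0.03 on distal chromosome 12 and -0.07 to 0.06 on distal chromosome 4. The median of G4 on the balanced autosomes was -0.08 with TMM factors and -0.12 with total reads, so dosage and allele changes are given relative to that median from here on. In these terms the folds were 1.43 on chromosome 3, 1.45 on chromosome 18, 1.66 on distal chromosome 12 and 0.582 on distal chromosome 4.

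**Figure D2:**
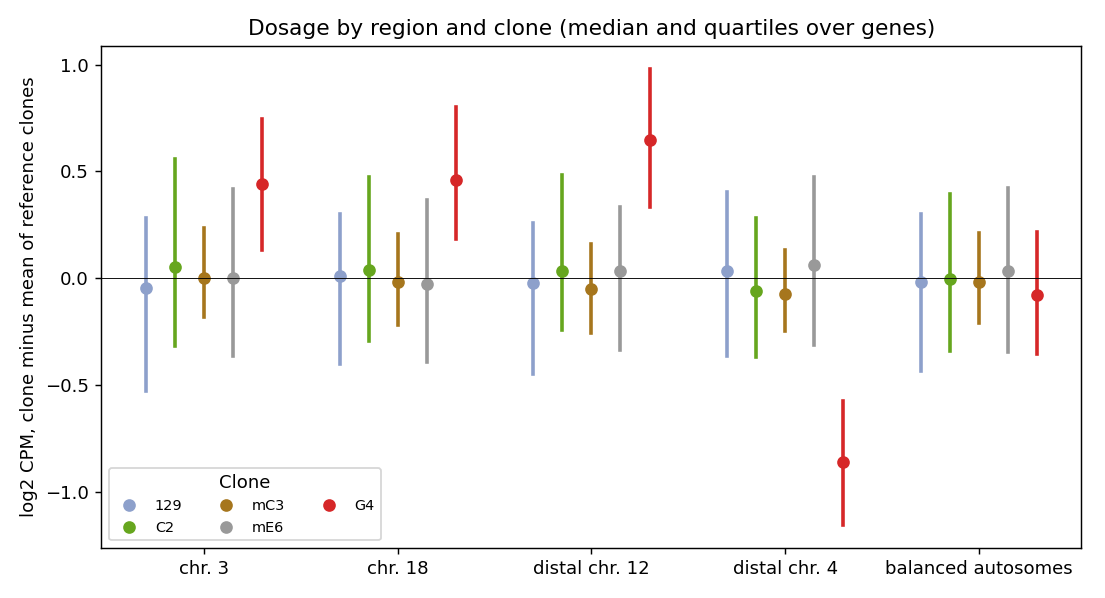
Median (point) and quartiles (line) over genes of log2 CPM in each clone minus the mean of its reference clones, by region; 0 on the vertical axis is no difference. G4 (red) lies at 0.44, 0.46 and 0.65 on chromosomes 3, 18 and distal 12 and at -0.86 on distal chromosome 4, and the medians of the other clones lie between -0.07 and 0.06 on these regions.

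Single genes spread around these medians about as widely as genes elsewhere. The quartiles of relative dosage were 0.21 and 0.82 on chromosome 3, 0.26 and 0.88 on chromosome 18, 0.41 and 1.06 on distal chromosome 12 and -1.07 and -0.50 on distal chromosome 4, against -0.28 and 0.29 on the balanced autosomes. On the other side of 0 from the median of their region lay 17.1% of the genes on chromosome 3, 13.3% on chromosome 18, 13.6% on distal chromosome 12 and 6.25% on distal chromosome 4. G4 was the highest of the 5 clones for 384 of 771 genes tested on chromosome 3 (49.8%), 227 of 410 on chromosome 18 (55.4%) and 164 of 274 on distal chromosome 12 (59.9%), beside 15.4% of 13410 genes on the balanced autosomes. It was the lowest for 255 of 376 genes on distal chromosome 4 (67.8%), beside 22.4% there. These counts come from the contrast that chose the clone.

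Split into equal groups by level in the other clones, the most abundant genes had relative dosages of 0.55 on chromosome 3, 0.56 on chromosome 18, 0.75 on distal chromosome 12 and -0.73 on distal chromosome 4. For the least abundant genes the medians were 0.42, 0.55, 0.45 and -0.70. The spread narrowed with level on the gained regions, from an interquartile range of 0.92 to 0.47 on chromosome 3 and from 1.26 to 0.43 on distal chromosome 12.

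Each allele was followed by its own reads in genes with 20 or more allele reads in each of the 5 libraries and a mean Cast share of 35 to 65% in the other clones. The Cast allele was higher by a median of 0.87 (log2, relative to the balanced autosomes) on chromosome 3 over 441 genes, 0.88 on chromosome 18 over 269 and 1.18 on distal chromosome 12 over 184, or 1.83, 1.84 and 2.27 times. On distal chromosome 4 it was -2.75 over 226 genes, or 0.149 times, with 0.5 CPM added to each level, and -3.40, or 0.0947 times, with 0.05 CPM added. The size of this loss is thus set in part by the value added. The 129 allele was near its level elsewhere on all 4 regions, with medians of -0.01, 0.03, -0.01 and -0.01. Its quartiles, -0.22 and 0.22 on chromosome 3, -0.19 and 0.29 on chromosome 18, -0.26 and 0.21 on distal chromosome 12 and -0.23 and 0.21 on distal chromosome 4, were like those of the 129 allele on the balanced autosomes, at -0.23 and 0.24. These medians come from the contrast that chose the clone and were not tested. If the 129 allele kept its level, the median Cast shares would correspond to totals of 1.47, 1.44, 1.79 and 0.541 times; the totals measured were 1.43, 1.45, 1.66 and 0.582 times.

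**Figure D3:**
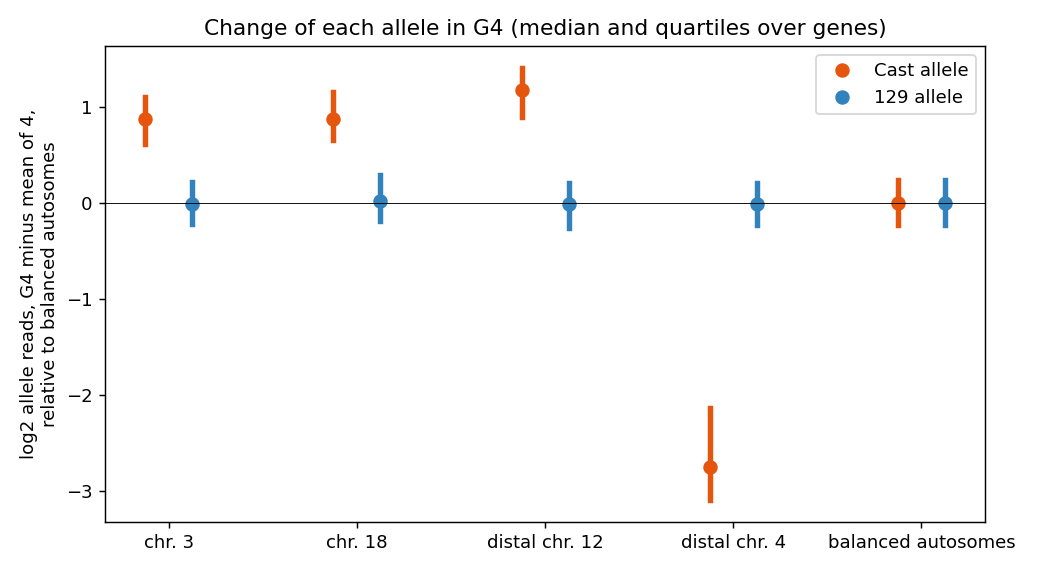
Change of the Cast (orange) and 129 (blue) alleles in G4, as log2 allele reads in G4 minus the mean of the 4 other clones and relative to the balanced autosomes; points are medians and lines quartiles over genes. The Cast allele lies at 0.87, 0.88 and 1.18 on chromosomes 3, 18 and distal 12 and, with 0.5 CPM added, at -2.75 on distal chromosome 4, while the 129 allele lies between -0.01 and 0.03.

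Among the 5 most abundant genes of distal chromosome 4, the level lay below all other clones in some and within their range in others. Gnb1, a G protein beta subunit, was lower in G4 than in every other clone, with only 35 allele-specific reads to give its share. Gnb1 had 259.6 CPM in G4, 579.9 in 129, 487 in C2, 534 in mC3 and 535 in mE6. Fbxo2, a brain-enriched F-box protein that binds glycoproteins, was far lower. Fbxo2 was at 27.4 CPM in G4 and at 464, 524, 413 and 1086 in 129, C2, mC3 and mE6. Its Cast share was 11.4% in G4 and already 14.5 to 26.1% in the others. Agrn encodes the basement membrane proteoglycan agrin. The level of Agrn was 1165 CPM in G4, 1109.9 in 129, 2087 in C2, 1755 in mC3 and 1539 in mE6. Its Cast share was 4.52% over 48063 reads, against 34.1 to 44.6%, yet its level lay within the range of the others. Eno1, a glycolytic enolase, had 4.83% Cast reads, against 32.8 to 41.2%. In G4 Eno1 had 1025 CPM, against 715 (129), 1344 (C2), 1589 (mC3) and 1586 (mE6). Clic4, a chloride intracellular channel protein, had 7.43%, against 37.6 to 50.2%. Clic4 had 384 CPM in G4, 345 in 129, 541 in C2, 518 in mC3 and 772 in mE6. The levels of Eno1 and Clic4 also lay within the range of the others.

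The genes farthest below the median of distal chromosome 4, besides Fbxo2, were Megf6, Pnrc2 and Padi2. Megf6 was at 0.192 CPM in G4 and at 40.7, 7.46, 67.4 and 19.8 in 129, C2, mC3 and mE6. The level of Padi2 was 4.998 CPM in G4, 93.8 in 129, 18.7 in C2, 44.9 in mC3 and 78.2 in mE6. Padi2 is a peptidylarginine deiminase found in glia. Pnrc2, a nuclear receptor coactivator with a part in mRNA decay (chr4:135870917-135873846), stood out in its alleles too. In G4 Pnrc2 had 6.29 CPM, against 112 (129), 82.5 (C2), 128 (mC3) and 162 (mE6). The Cast share of what remained was 94.8% (90.9 to 97.1%, 212 reads), so in a region that kept mainly 129 reads Pnrc2 kept mainly Cast reads; the other clones had 55.7 to 59.4%. The genes farthest above the median were Alpl, Iffo2, Ubr4 and Col16a1, with relative dosages of 0.53, 0.53, 0.48 and 0.32. Their Cast shares were 3.58, 6.06, 6.75 and 3.81%; Alpl was also at 5.48% in clone 129. Ubr4 had 272 CPM in G4, 198 in 129, 372 in C2, 193 in mC3 and 125 in mE6. Ubr4 is a ubiquitin ligase. Ephb2, an ephrin receptor of guidance signals, kept a Cast share of 44.7% (41.0 to 48.3%, 712 reads), against 47.4 to 87.6% in the others, and its level was very uneven between clones. Ephb2 was at 16.8 CPM in G4 and at 281, 113, 45.6 and 8.86 in 129, C2, mC3 and mE6. Id3, a helix-loop-helix inhibitor induced by BMP, had 9.47% Cast reads but a relative dosage of -0.03. The level of Id3 was 349 CPM in G4, 429 in 129, 301 in C2, 296 in mC3 and 522 in mE6. Cdc42, a GTPase of the cytoskeleton, was at 0.431 times the mean of the others. In G4 Cdc42 had 222 CPM, against 409 (129), 448 (C2), 580.0 (mC3) and 620.4 (mE6).

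On chromosome 3, the most abundant genes included Gstm1 (a glutathione transferase), Bcan (the matrix proteoglycan brevican), Pdlim5 and Lix1l. Bcan had 1303 CPM in G4, 570.1 in 129, 885 in C2, 955 in mC3 and 1079 in mE6. Lix1l was at 1320.0 CPM in G4 and at 826, 637, 516 and 664 in 129, C2, mC3 and mE6. Both were highest in G4. The genes farthest above the median were Kcnn3, Col25a1, Igsf10 and Slc7a11, at relative dosages of 4.50, 3.82, 3.71 and 3.42. In G4 Slc7a11 had 90.8 CPM, against 7.12 (129), 11.3 (C2), 16.7 (mC3) and 3.70 (mE6). Slc7a11 brings cystine into the cell in exchange for glutamate. Kcnn3 had 59.4 CPM in G4, 1.27 in 129, 0.277 in C2, 7.91 in mC3 and 4.72 in mE6. Kcnn3 is a calcium-activated potassium channel. Farthest below were Gria2, 4933431E20Rik, Ctbs and Gstm5. Ctbs, a lysosomal chitobiase, was even in the other clones. Ctbs was at 0.601 CPM in G4 and at 9.41, 11.5, 7.51 and 10.9 in 129, C2, mC3 and mE6. Hey1 and Notch2, a target and a receptor of Notch signalling, were the 2 members of the Notch list on chromosome 3, and both were highest in G4. So were 49.8% of all genes tested on chromosome 3. Of the 12 members of the whole list that were tested, 3 were highest and 4 lowest in G4. The level of Hey1 was 353 CPM in G4, 151 in 129, 119.7 in C2, 93.4 in mC3 and 198 in mE6. In G4 Notch2 had 257 CPM, against 199 (129), 217 (C2), 98.8 (mC3) and 35.3 (mE6). Fgf2, a growth factor of neural progenitors, had a Cast share of 98.5% in G4 (1724 reads) and 39.5 to 80.3% in the others. Fgf2 had 30.0 CPM in G4, 1.85 in 129, 13.9 in C2, 7.64 in mC3 and 8.16 in mE6.

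On chromosome 18, Ctnna1 (alpha-catenin of cell junctions) and Atp5a1 (a subunit of ATP synthase) were near the median of the region, with relative dosages of 0.59 and 0.40. Ctnna1 was at 770.1 CPM in G4 and at 465, 713, 496 and 511 in 129, C2, mC3 and mE6. Fgf1 and Cxxc5 lay at the balanced level, at relative dosages of -0.0035 and 0.0036, although their Cast shares were 67.4 and 66.5%. The level of Fgf1 was 771 CPM in G4, 405 in 129, 1202 in C2, 815 in mC3 and 1121 in mE6. In G4 Cxxc5 had 551 CPM, against 634 (129), 646 (C2), 477 (mC3) and 583 (mE6). Nrep was lower in G4 than in each other clone. Nrep had 359 CPM in G4, 809 in 129, 367 in C2, 1279.6 in mC3 and 629 in mE6. The genes farthest above the median were 3 clustered protocadherins, Pcdhb14, Pcdhb9 and Pcdhb3, whose close similarity makes the reads of single members uncertain, and Gnal. Pcdhb14 was at 128 CPM in G4 and at 33.7, 8.58, 5.64 and 1.36 in 129, C2, mC3 and mE6. Npc1 and Npc2, which carry cholesterol out of lysosomes together, lie on chromosome 18 and distal chromosome 12, and both were highest in G4. So were 55.4% of all genes tested on chromosome 18 and 59.9% on distal chromosome 12. Of the 18 genes of the lysosome and autophagy list, 4 were highest and 5 lowest in G4. Among the 14 of them on balanced autosomes, 0 were highest and 5 lowest, beside 15.4 and 22.4% of all genes there. The level of Npc1 was 252 CPM in G4, 82.6 in 129, 116 in C2, 114 in mC3 and 115 in mE6. In G4 Npc2 had 457 CPM, against 289.8 (129), 333 (C2), 255 (mC3) and 299 (mE6). Npc1 was 2.36 times the mean of the others. The water channel gene Aqp4 and the cadherin gene Cdh2 were also highest in G4. Aqp4 had 127 CPM in G4, 63.6 in 129, 53.7 in C2, 15.8 in mC3 and 89.6 in mE6. Cdh2 was at 501 CPM in G4 and at 277, 341, 200.3 and 134 in 129, C2, mC3 and mE6. Impact, an imprinted gene expressed from the paternal copy, had a Cast share of 68.1% in G4 and 47.5 to 100% in the others. The level of Impact was 301 CPM in G4, 239.7 in 129, 201 in C2, 184 in mC3 and 99.6 in mE6.

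On distal chromosome 12, Ckb (brain creatine kinase), Dync1h1 (the dynein heavy chain), Eif5 and Sipa1l1 were among the most abundant. In G4 Dync1h1 had 1065 CPM, against 360.1 (129), 614 (C2), 424 (mC3) and 298 (mE6). Ckb was at 2818 CPM in G4 and at 2204, 1854, 2174 and 4352 in 129, C2, mC3 and mE6. Dync1h1 lay above all other clones, and Ckb within their range with a Cast share of 61.5%, against 37.3 to 42.7%. Nrxn3, a presynaptic adhesion molecule, was the farthest above the median of the region. The level of Nrxn3 was 88.8 CPM in G4, 2.37 in 129, 5.52 in C2, 8.95 in mC3 and 2.69 in mE6. Rgs6, Acot2 and Vash1 followed, at relative dosages of 2.39, 2.17 and 2.08. Farthest below were Ifi27, Papln, Rhoj and Mlh3. Rhoj lies at the edge of the region, between Kcnh5 (53 allele reads) and Ppp2r5e (71.1% Cast over 1388 reads). Its place in the region is therefore less sure. In G4 Ifi27 had 13.3 CPM, against 60.6 (129), 21.2 (C2), 41.4 (mC3) and 54.3 (mE6). Numb, an inhibitor of Notch, and Hsp90aa1, a heat shock chaperone, were highest in G4. Numb had 62.3 CPM in G4, 34.6 in 129, 46.6 in C2, 32.8 in mC3 and 26.6 in mE6. Hsp90aa1 was at 604 CPM in G4 and at 455, 326, 391 and 403 in 129, C2, mC3 and mE6.

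In the gained regions 3 genes were expressed almost from 1 allele in G4 while the other 4 clones had 35 to 65% Cast reads, with at least 100 allele-specific reads in each library. They were 3 of 721 genes (0.416%), beside 39 of 6415 (0.608%) on the balanced autosomes. Counted in the same way in these regions, clone 129 had 6 of 284 (2.11%), C2 0 of 273, mC3 0 of 272 and mE6 0 of 269. Those sets of genes are smaller, since G4 itself had to have 35 to 65% Cast reads in them. Ttll7, a tubulin polyglutamylase on chromosome 3, had a Cast share of 1.69% (0.968 to 2.93%, 711 reads), against 35.7 to 44.7%. The level of Ttll7 was 17.7 CPM in G4, 29.2 in 129, 38.5 in C2, 36.8 in mC3 and 41.5 in mE6. It was lowest in G4, on a chromosome where the median gene lay above the balanced level. Mbd1, a methyl-CpG-binding protein on chromosome 18, was at 100% (99.7 to 100%, 1471 reads), against 53.7 to 61.8%, and Ptgr2 on distal chromosome 12 at 99.6% (99.4 to 99.7%, 7439 reads), against 39.7 to 52.6%. In G4 Mbd1 had 51.5 CPM, against 48.0 (129), 39.4 (C2), 41.9 (mC3) and 36.5 (mE6). Ptgr2 had 128 CPM in G4, 81.8 in 129, 92.2 in C2, 151 in mC3 and 211 in mE6. Mbd1 was the highest in G4, at a relative dosage of 0.40, and Ptgr2 within the range of the others, at 0.12.

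Subunits of one complex are encoded on many chromosomes, and all those in the 4 regions lay on the same side of the balanced level as the median of their region. So did 82.9% of all genes on chromosome 3, 86.7% on chromosome 18, 86.4% on distal chromosome 12 and 93.8% on distal chromosome 4. Of the cytosolic ribosomal proteins, the 6 on chromosomes 3 and 18 had relative dosages of 0.43 to 1.58 (median 0.68), all above the balanced autosomes. The highest value was that of Rpl22l1, included in the list by its symbol, and the next was Rps14 at 0.78. The 2 on distal chromosome 4, Rpl11 and Rpl22, were at -0.83 and -0.77. The 73 on balanced autosomes had a median of 0.11, with 55 above 0. Rps14 was at 715 CPM in G4 and at 372, 387, 399 and 647 in 129, C2, mC3 and mE6. The level of Rpl34 was 319 CPM in G4, 193 in 129, 199 in C2, 195 in mC3 and 287 in mE6. In G4 Rpl11 had 175 CPM, against 308 (129), 272 (C2), 316 (mC3) and 443 (mE6). Rps14 and Rpl34 were highest in G4 and Rpl11 lowest. Of the mitochondrial ribosomal proteins, the 5 on chromosome 3 lay at 0.25 to 0.50 and Mrpl20 on distal chromosome 4 at -1.46, while 60 of the 70 on balanced autosomes were below 0 (median -0.27). The proteasome had 4 subunits in the gained regions at 0.24 to 0.55 and 27 on balanced autosomes with a median of -0.31, of which 25 were below 0. Respiratory complex I had 3 in the gained regions at 0.32 to 0.41 and 32 on balanced autosomes with a median of -0.25, of which 29 were below 0. The median over all genes of the balanced autosomes is 0 by definition. On chromosome 3, G4 was the highest clone for 4 of 4 cytosolic and 1 of 5 mitochondrial ribosomal proteins. It was highest there for 0 of 3 proteasome and 0 of 2 complex I subunits, beside 49.8% of all genes tested. On chromosome 18 this held for 2 of 2 cytosolic ribosomal proteins and 0 of 1 complex I subunit, and on distal chromosome 12 for 1 of 1 proteasome subunit. The edgeR quasi-likelihood test called 0 members of these lists at an adjusted p of 0.05, with 0 of 19468 genes called in all (0% higher and 0% lower). The summed level of the proteasome was 3224 CPM in G4 and 3103 to 4678 in the other clones. Over its 27 subunits on balanced autosomes alone, the sum was lowest in G4, at 2679 CPM against 2764 to 4149. G4 was the lowest clone in the sum of the mitochondrial ribosomal proteins, at 1980.4 CPM against 2086 to 3068, and of complex I, at 2905 against 2984 to 4942. The cytosolic ribosomal proteins summed to 19672 CPM in G4 and 15203 to 22659 in the others.

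**Figure D4:**
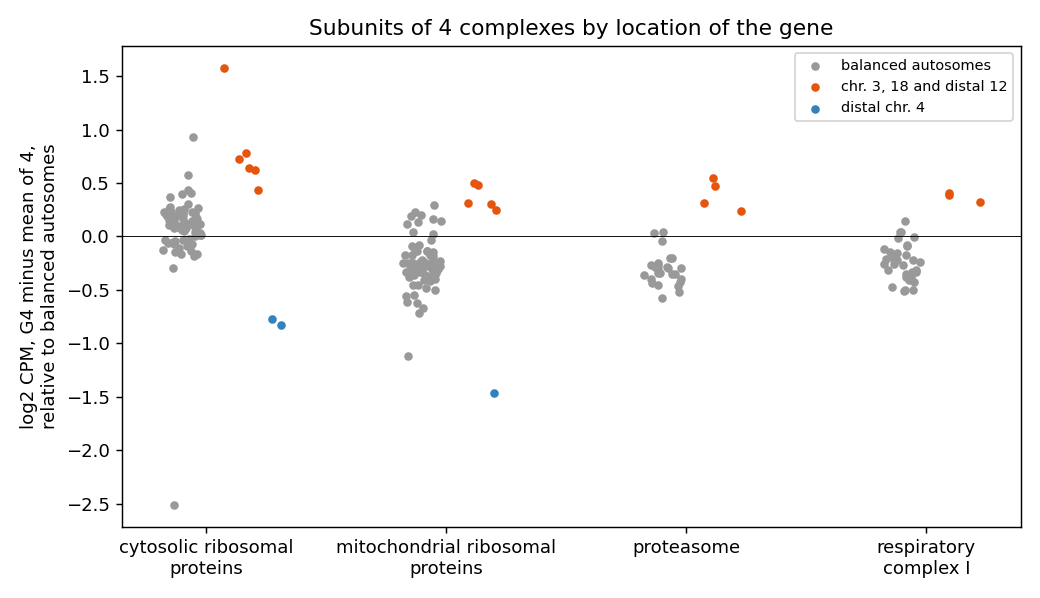
Relative dosage in G4 (log2 CPM, G4 minus the mean of the 4 other clones, relative to the balanced autosomes) of each subunit of 4 complexes, 1 point a gene. Subunits encoded on chromosomes 3, 18 and distal 12 (orange) lie above 0 in all 4 complexes and those on distal chromosome 4 (blue) between -1.46 and -0.77, while 25 of 27 proteasome subunits on balanced autosomes (grey) lie below 0.

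Runs of neighbouring genes with a shifted Cast share were then sought on the balanced autosomes, after the values were seen. Each run joined genes at the centre of 7 in a row whose median lay more than 15 points from 50%. Single genes of a run need not be shifted. There were 3 runs in G4, 3 in mC3, 0 in C2 and mE6, and 43 in 129, of which 3 were not on chromosome 1. The first run of G4 spanned Shisa7 to Ssc5d on proximal chromosome 7 (chr7:4825551-4944828), with a median of 3.82%. Within it Isoc2a, Zfp628 and Nat14 had 3.82, 0.922 and 1.38%, but Shisa7 had 52.1% and Ssc5d 23.8%. Another spanned Hoxb8 to Hoxb5os on chromosome 11 (chr11:96279401-96306910), with 68.2%, and the last lay along the end of chromosome 7. At the end of chromosome 7, from Nap1l4 (chr7:143513579-143549882) to the last measured gene, all 12 genes with 50 or more allele reads in G4 had Cast shares of 98.8 to 100%, with a median of 99.4%. In the other clones the medians of the same segment were 52.8, 51.8, 47.9 and 49.4% (129, C2, mC3 and mE6), and in the 7 NPC clones 48.5 to 52.6%. Tssc4 (chr7:143068416-143071093), 442486 bp before Nap1l4, had 53.4% over 2061 reads. Relative dosage of the 15 genes with enough reads had a median of -1.08, and all 15 were below 0. The Cast allele was at -0.21 relative to the balanced autosomes, over 12 genes. The 129 allele was at -3.48 with 0.5 CPM added and at -5.89 with 0.05 CPM added, so its loss is understated by the first value and has no settled size. Here the 129 reads were the ones nearly missing, whereas on distal chromosome 4 it was the Cast reads. The genes include Ccnd1, the G1 cyclin D1, Cttn, an actin-binding protein, Dhcr7, the last enzyme of cholesterol synthesis, and Fadd, an adaptor of death receptors. Ccnd1 had 27.0 CPM in G4, 126 in 129, 245 in C2, 41.4 in mC3 and 36.4 in mE6. Cttn was at 89.6 CPM in G4 and at 303, 303, 233 and 199.97 in 129, C2, mC3 and mE6. The level of Dhcr7 was 27.7 CPM in G4, 101 in 129, 152 in C2, 48.0 in mC3 and 53.2 in mE6. In G4 Nap1l4 had 70.2 CPM, against 197 (129), 157 (C2), 186 (mC3) and 221 (mE6). In these 4 G4 was the lowest clone, and edgeR called 0 of the 16 genes tested. DESeq2 called 9, beside 0.716% of the balanced autosomes higher and 1.76% lower, and 8 had an unadjusted edgeR p under 0.05, beside 3.75%. The segment was found by its Cast shares in the same libraries. Ccnd1 was at 98.8% Cast (97.6 to 99.4%, 662 reads), against 47.1 to 54.2%. Osbpl5 was nearer to the balanced level, at a relative dosage of -0.23, with 99.4% Cast reads. These 27 annotated genes, 16 of them tested, were counted with the balanced autosomes in all other values.

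Apart from this segment, 28 genes of the balanced autosomes had Cast shares under 15% or over 85% in G4 and 35 to 65% in each other clone, with at least 100 allele-specific reads in every library. Of these, 12 had mainly Cast and 16 mainly 129 reads. Counted in the same way but with the segment on chromosome 7, 39 of 6415 genes were of 1 allele in G4 alone, 74 of 6699 in 129 alone, 10 of 6361 in C2, 5 of 6344 in mC3 and 5 of 6357 in mE6. All 28 had a relative dosage below 0, with a median of -0.67 and a range from -1.73 to -0.19. They were named after their values were seen. Clic1, a chloride intracellular channel protein, had 5.18% Cast reads. Clic1 had 40.0 CPM in G4, 167 in 129, 116 in C2, 133 in mC3 and 138 in mE6. Stx17, a syntaxin of autophagosomes, had 0.606% Cast reads. Stx17 was at 25.1 CPM in G4 and at 33.8, 28.4, 48.1 and 44.0 in 129, C2, mC3 and mE6. Alas1, the first enzyme of heme synthesis, had 99.2%. The level of Alas1 was 48.7 CPM in G4, 53.5 in 129, 105 in C2, 86.1 in mC3 and 93.9 in mE6. In each of these G4 was the lowest clone.

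Expression on the balanced autosomes was then tested. Of 13410 genes tested there, edgeR called 0 higher and 0 lower in G4 at an adjusted p of 0.05, with 226 higher and 277 lower at an unadjusted p under 0.05, which is 3.75% of the genes. DESeq2 called 96 higher (0.716%) and 236 lower (1.76%), so the count depends on the tool. The clones differed widely among themselves, with a common biological coefficient of variation of 60.9%. Data were simulated with the trend of spread over abundance, not with the spread of each gene, and only genes above 1 CPM were changed. In these simulated data edgeR found 0 of 200 genes changed by a log2 fold of 1, 8 of 200 changed by 2 and 142 of 200 changed by 4. Among the genes named here the lowest adjusted p was that of Zfp770, a zinc finger gene (chr2:114193456-114201432). In G4 Zfp770 had 0.243 CPM, against 81.9 (129), 72.2 (C2), 83.3 (mC3) and 82.5 (mE6). It was at 0.00304 times the mean of the others (log2 fold change -8.35, SE 0.40, adjusted p = 0.0509 by edgeR and 8.69e-106 by DESeq2).

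The genes described next were chosen after their values were seen, as those of the balanced autosomes in which G4 lay at least 4 times above the highest or below the lowest other clone (0.5 CPM added), with at least 5 CPM on the higher side. There were 20 above and 20 below, which is 0.149% of the genes in each direction. Counted in the same way, each against the remaining 4, clone 129 had 31 above and 140 below, C2 31 and 4, mC3 27 and 1 and mE6 16 and 9. Among those below, Eid1, an inhibitor of differentiation that binds the retinoblastoma protein, was nearly silent in G4 alone. Eid1 had 0.767 CPM in G4, 201 in 129, 191 in C2, 305 in mC3 and 408 in mE6. Its reads numbered 60 in G4 and 14506 to 37117 in the others (adjusted p = 0.587 by edgeR and 6.89e-52 by DESeq2). Scd1, the desaturase that makes monounsaturated fatty acids, is among the most abundant genes of the other clones. Scd1 was at 15.1 CPM in G4 and at 1135, 3885, 649 and 1631 in 129, C2, mC3 and mE6. Twist1, a mesenchymal transcription factor, had 6 reads in G4. The level of Twist1 was 0.0767 CPM in G4, 18.5 in 129, 34.8 in C2, 15.1 in mC3 and 9.42 in mE6. Fkbp10, a collagen chaperone, and Inpp1, an inositol phosphatase, were low too. In G4 Fkbp10 had 1.60 CPM, against 99.9 (129), 80.8 (C2), 148 (mC3) and 37.1 (mE6). Inpp1 had 0.396 CPM in G4, 30.7 in 129, 22.9 in C2, 41.7 in mC3 and 19.03 in mE6. Mical1, Capn5, Slc38a1, Parvb, Fxyd1 and Zfp59 completed the 12 farthest below, with 0.0256 to 3.39 CPM in G4.

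The promoters of Zfp770 and Pnrc2 are shown because these genes were far lower in G4 than in all other clones, Zfp770 at nearly 0 and Pnrc2 with its remaining reads mainly from the Cast allele. They are the 250 bases before the start in RefSeq on GRCm38.p6, minus strand, 5′ to 3′, with CpG sites in capitals (chr2:114201433-114201682 and chr4:135873847-135874096).
Zfp770: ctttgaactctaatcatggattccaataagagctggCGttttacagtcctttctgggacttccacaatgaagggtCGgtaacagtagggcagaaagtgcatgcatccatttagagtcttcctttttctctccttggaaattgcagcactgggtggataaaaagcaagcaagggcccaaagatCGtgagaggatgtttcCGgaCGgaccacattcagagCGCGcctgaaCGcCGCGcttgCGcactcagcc
Pnrc2: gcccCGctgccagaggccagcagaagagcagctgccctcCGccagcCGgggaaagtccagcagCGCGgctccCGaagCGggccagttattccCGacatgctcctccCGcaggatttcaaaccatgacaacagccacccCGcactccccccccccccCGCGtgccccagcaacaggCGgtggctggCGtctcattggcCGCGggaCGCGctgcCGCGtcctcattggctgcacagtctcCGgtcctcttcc
The first holds 11 and the second 21 CG dinucleotides, against a median of 6 in 32851 promoters of this length, of which 35.6% hold at least 11 and 16.3% at least 21. A promoter of Eid1 was not used here. DNA methylation was not measured.

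Among the genes above, Npr3, the clearance receptor of natriuretic peptides, was near 0 in all other clones. Npr3 was at 34.3 CPM in G4 and at 0.248, 0.316, 0.490 and 0.0880 in 129, C2, mC3 and mE6. That was 120 times the mean of the others (log2 fold change 6.90, SE 0.77, adjusted p = 0.595 by edgeR and 7.27e-14 by DESeq2). C1qtnf3, a secreted C1q-like protein, was the most abundant of them. The level of C1qtnf3 was 378 CPM in G4, 22.4 in 129, 53.7 in C2, 11.5 in mC3 and 9.76 in mE6. Chac1, a glutathione-degrading enzyme induced by amino acid stress, was higher as well. In G4 Chac1 had 11.3 CPM, against 0.435 (129), 0.672 (C2), 0.339 (mC3) and 0.638 (mE6). Tmem132c, Prmt8, Clec14a, Shc2 and Edn1 were others of this kind, with 6.95 to 59.0 CPM in G4. Of the 12 farthest above, 4 were Hox genes or their transcripts: Hoxc8, Hoxc9, Hoxd10 and Hoxb5os. Hox genes set position along the body axis and are arranged in 4 clusters. Hoxc8 had 118 CPM in G4, 0.776 in 129, 13.5 in C2, 0 in mC3 and 0 in mE6. Hoxd10 was at 35.5 CPM in G4 and at 0.0724, 0, 0 and 0 in 129, C2, mC3 and mE6. The Hox genes were looked at after their values were seen. Of 29 tested, 19 were highest in G4, beside 15.4% of all genes on the balanced autosomes. By cluster these were 5 of 9 in Hoxa, 4 of 8 in Hoxb, 6 of 6 in Hoxc and 4 of 6 in Hoxd. Together the Hoxc genes had 175 CPM in G4, 3.59 in 129, 18.2 in C2 and 0 in both male clones. The Hoxb cluster was expressed in all 3 female clones, with 574 CPM in G4, 444 in 129 and 493 in C2, and 0.126 and 0.0770 in mC3 and mE6. The Hoxa cluster was high in G4 and C2, at 1124 and 976 CPM, and at 48.2, 47.6 and 49.2 in 129, mC3 and mE6. The Hoxd cluster had 147 CPM in G4 and 79.7, 34.2, 66.9 and 43.8 in 129, C2, mC3 and mE6. The male clones were the lowest in Hoxb and Hoxc, but C2 was the lowest in Hoxd.

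**Figure D5:**
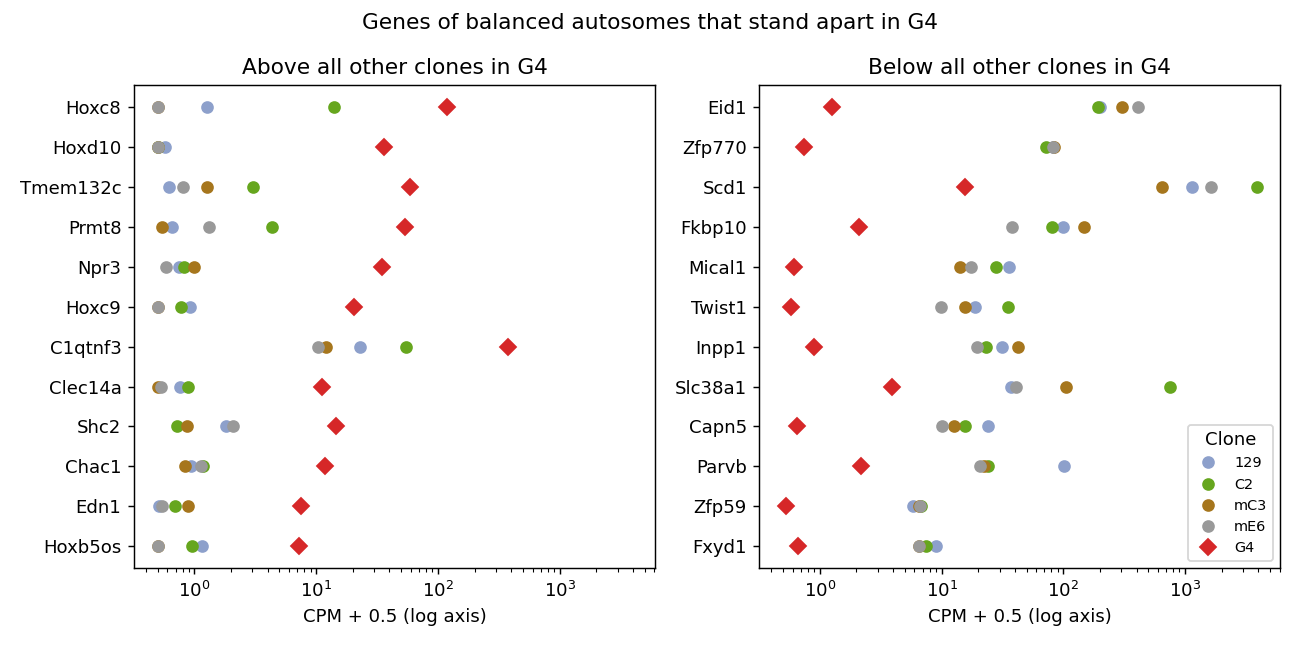
CPM with 0.5 added (log axis) of the 12 genes of balanced autosomes farthest above (left) and the 12 farthest below (right) all other clones in G4, 1 row a gene and 1 point a clone. G4 is the red diamond; Eid1 and Zfp770 lie at 0.767 and 0.243 CPM in G4, while their other clones are close together.

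Of the 13 genes studied for random monoallelic expression, 12 lie on balanced autosomes. Of these 12, 3 were highest and 1 lowest in G4, beside 15.4 and 22.4% of all genes there. App, the amyloid precursor, was by far the most abundant and lay within the range of the others. The level of App was 2186 CPM in G4, 1237 in 129, 2603 in C2, 1977 in mC3 and 1665 in mE6. Eya4 had 13.9% Cast reads in G4 (10.2 to 18.6%, 259 reads) and 0.399 to 97.2% in the others. Cnrip1 had 0 reads in G4, 129 and C2, and Acyp2 had 1 read in G4 and 0 in 129 and C2, so that more than 1 read was found only in the male clones of these 5. In G4 Cnrip1 had 0 CPM, against 0 (129), 0 (C2), 3.75 (mC3) and 11.0 (mE6). Peg3, an imprinted gene normally expressed from the paternal copy, was 3.76 times the mean of the others. Peg3 had 730.1 CPM in G4, 219.9 in 129, 215 in C2, 189 in mC3 and 153 in mE6. Its Cast share was 49.3% in G4 and 47.3 to 99.9% in the others (log2 fold change 1.91, SE 0.28, adjusted p = 0.637 by edgeR and 5.09e-08 by DESeq2).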

How the data were processed

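Poly(A) RNA of 5 astrocyte clones was compared, 1 library each. The authors aligned reads with TopHat2 2.1.0 and Bowtie2 to an N-masked GRCm38 genome, split them by strain SNPs with SNPsplit and counted them on their strand with featureCounts 1.5.1; the annotation version is not given in the sources used here. They deposited raw read counts per gene, in all and for each allele, and the Cast fraction of allele-specific reads. The fraction was recomputed here from the counts. Symbols were matched by Ensembl ID (32722 of 50600 IDs had a symbol). Positions came from RefSeq GRCm38.p6 by symbol or by a unique synonym. They were kept only where the chromosome was that of the same ID in a GENCODE annotation. Where several IDs shared a symbol, only the ID with most reads kept its position.

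G4 was tested against the other clones with edgeR 4.0.16 (quasi-likelihood, TMM, Benjamini-Hochberg over 19468 genes) and, as an alternative, DESeq2 1.42.0. The edgeR script was tested on simulated data. CPM used TMM library sizes. The genes named are the most abundant of each region, those farthest from its median, members of gene lists and the genes of balanced autosomes farthest from all other clones. The members and lists were chosen with earlier results of these data known. The labels do not say whether clones were cultured together, so p-values measure the spread between these libraries. Other alternatives were another scaling, filters on low counts, read minimums and leaving out each clone. Values of a few genes chosen in this way are left out.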

Additional observations from a re-analysis of the deposited data

Results flagged for a closer look

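In 41 groups of the 4 other clones, a single clone lay far from the rest 3 times by Dixon's test; chance alone flags about 1 group in 20. The median Cast share of C2 was 44.9% on distal and 44.8% on proximal chromosome 4, with the remaining 3 clones higher. The median log2 change of the 129 allele on chromosome 18 was 0.10 in clone 129. Each of these clones is part of the reference for G4.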

How the results depend on the processing

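Of 132 values recomputed under another setting, 112 stayed within the spread between clones or on the same side of the threshold, and none reversed. On the balanced autosomes DESeq2 called 96 genes higher and 236 lower where edgeR called 0, and edgeR called 1 lower gene without a filter and 1 with a filter on mean CPM. All changes here are before subtracting the balanced median. Scaling by total reads gave dosages of 0.40, 0.42 and 0.61 on chromosomes 3, 18 and distal 12, Cast changes of 0.74 on both chromosomes 3 and 18, and 129 changes of -0.16 on chromosomes 3 and distal 12. TMM factors from balanced autosomes gave dosages of 0.51, 0.53 and 0.72. A minimum of 200 reads gave 0.70 on distal chromosome 12, and summing reads gave a Cast share of 64.99% on chromosome 3. With a pseudocount of 0.05 in place of 0.5 CPM, chosen after seeing the data, the Cast change was 0.85 on chromosomes 3 and 18 and -3.50 on distal chromosome 4, where 0.5 CPM gave -2.84, so that the size of the loss depends on it. Leaving out 1 clone gave dosages of 0.43 to 0.47, 0.45 to 0.49, 0.62 to 0.67 and -0.89 to -0.85 on chromosomes 3, 18, distal 12 and distal 4, and 0 calls. No paired analysis was possible because G4 is a single library and the groups share fewer than 2 replicate numbers. Without a replicate of G4, its own variation cannot be measured.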

Other observations

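Among the genes of cholesterol synthesis, 16 of 19 lay below the balanced median in G4 (median relative dosage -0.22), as do 50% of balanced genes by definition. G4 was the lowest clone for 6 of the 16 on balanced autosomes, beside 22.4% of all genes there. The 19 genes summed to 2456 CPM in G4, 3768 in 129, 4620 in C2, 2100 in mC3 and 2617 in mE6, so G4 lay within the range of the others. Of the heat shock and unfolded protein genes on balanced autosomes, 7 of 16 were highest and 2 lowest in G4. Of the BMP targets there, 3 of 8 were highest and 2 lowest. Of all genes there, 15.4% were highest and 22.4% lowest. The first list summed to 1548 CPM in G4, within the 1344 to 1769 of the others. The BMP targets summed to 1319 CPM in G4, below the 1442 to 2617 of the others. The other BMP targets highest in G4 were 2 of 2 on chromosome 3 and 1 of 2 on chromosome 18, beside 49.8 and 55.4% of all genes tested there.

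On the X chromosome, the median Cast share of 319 genes was 98.9% in G4, and 85 genes had more than 10% 129 reads, against 45 in clone 129 and 100 in C2.

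Among the 7 NPC clones, mG2 had a median Cast share of 0.0682% over 320 genes of chromosome 18, and the other clones had 48.8 to 49.8% there. Ch5, Ch7 and Ch8 had a median Cast share of 100% on both parts of chromosome 12. F5 had a raised share on the distal part alone, with a median of 73.5% over 189 genes and 49.3% over 172 proximal ones. Its split lay between Rhoj (chr12:75308313-75401455; 38.5%, 348 reads) and Ppp2r5e (chr12:75449463-75596237; 72.8%, 1913 reads).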
